A study of Homo sapiens with 8 samples.

Results

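POMT1, POMT2, POMGNT1, GXYLT1 and XXYLT1 are 5 human genes for glycosyltransferases that start or extend O-linked sugars on proteins, out of 22008 genes with reads across an annotated intron. They were put together by function around POMT2 and GXYLT1, the 2 members picked because an exon inside each was read more often in cells given LMI070. The values of those exons and of their genes are therefore given as a description without a test, and tests are given for the other exons, junctions and genes. LMI070, also called branaplam, is a small-molecule splicing modulator developed to raise inclusion of an exon of SMN2.

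In the endoplasmic reticulum, POMT1 and POMT2 form a complex that attaches mannose to serine or threonine, above all on alpha-dystroglycan, and POMGNT1 extends that mannose with N-acetylglucosamine in the Golgi. Inherited loss of any of these 3 enzymes leaves alpha-dystroglycan poorly glycosylated and causes muscular dystrophy with brain and eye defects. GXYLT1 and XXYLT1 work on another glycan, on the EGF repeats of Notch receptors and some clotting factors: GXYLT1 attaches xylose to an O-linked glucose and XXYLT1 adds a further xylose.

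The cells were HEK293, an established human embryonic kidney line, in both groups. The LMI070 group, replicates 13 to 16, had received 25 nM LMI070, and the DMSO group, replicates 9 to 12, the solvent dimethyl sulfoxide; the labels give no exposure time, no genetic change and no word on separate cultures. Ribosomal RNA was removed from total RNA before stranded libraries were made and sequenced, with LMI070 replicates 13 and 16 and DMSO replicates 11 and 12 in lane 7 and the others in lane 8. Only reads that cross a splice junction were counted.

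Uniquely mapped junction reads numbered 20369466 to 36131054 per library with LMI070 and 21975349 to 26716014 with DMSO. HEK293 marker genes had 1819 to 3020 spliced reads in a library with LMI070 and 1833 to 2305 with DMSO, all 6 of them detected. Blood markers had 7 to 19 reads with LMI070 and 7 to 13 with DMSO, keratinising or cervical epithelium 1 to 7 with LMI070 and 0 to 8 with DMSO, and hepatocytes 1 to 4 with LMI070 and 1 to 3 with DMSO. The 5 fibroblast markers, among them collagen genes, had 430 to 1104 reads with LMI070 and 401 to 595 with DMSO; their part in the results was not tested. LMI070 replicate 16 and DMSO replicate 12, both of lane 7, lay farthest from the other libraries over the genes tested, with average root mean square differences of 0.216 and 0.208 on the log2(CPM + 1) scale, against 0.172 to 0.195 for the others; CPM are counts per 1000000. Leaving out both libraries gave 46.7 percentage points for the POMT2 exon and 16.2 for the GXYLT1 exon, next to 44.6 and 15.5 with all libraries.

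The POMT2 exon is shown here with the exons on either side of it because its last bases recur in the exon before it. All 3 are on the minus strand of chromosome 14 in GRCh38 and are printed 5′ to 3′ from the GENCODE 29 transcripts; capitals mark the last 3 bases of the exons that end at the 5′ splice sites compared below.
exon 11, chr14:77288762-77288831: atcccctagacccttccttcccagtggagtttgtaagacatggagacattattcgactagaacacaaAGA
39-nt exon, chr14:77287233-77287271: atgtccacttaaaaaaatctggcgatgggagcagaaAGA
exon 12, chr14:77286744-77286822: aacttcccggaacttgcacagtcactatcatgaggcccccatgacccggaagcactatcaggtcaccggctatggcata

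The 39-nt exon lies in intron 11 of POMT2-201, a transcript of 21 exons, 1490 nt after exon 11 and 410 nt before exon 12. GENCODE 29 holds it in a single transcript, POMT2-218, as exon 3 of 4, and that transcript is marked as having a retained intron. Exon 11 and the 39-nt exon share their last 5 bases, and 41.0% of the bases of the 39-nt exon are G or C. The exon adds 13 codons after 417 complete codons of POMT2-201 and 2 bases of the next, and reading the insertion through to exon 12 meets 0 stop codons in frame.

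Inclusion of the 39-nt exon was 50.8%, 52.6%, 48.5% and 45.6% in LMI070 replicates 13 to 16, against 3.23%, 3.40%, 5.10% and 7.42% in DMSO replicates 9 to 12. Inclusion is the mean of the reads entering and leaving the exon, divided by that mean plus the reads that skip it. The groups did not overlap, and the lowest LMI070 library lay far above the highest DMSO library. The means were 49.3% ± 3.04 with LMI070 and 4.79% ± 1.95 with DMSO (SD, n = 4 each). This change of 44.6 points ranked at place 2 among 38172 exons, of which 0.139% were called, a background from which nothing is read here since the exon chose the gene. Lane 7 alone gave 41.9 points and lane 8 alone gave 47.2.

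The reads behind these shares differed between the groups at all 3 junctions. Reads entering the exon from exon 11 numbered 96, 59, 45 and 46 in the LMI070 libraries, against 4, 5, 7 and 7 in the DMSO libraries. Reads leaving it for exon 12 numbered 90, 54, 49 and 36 with LMI070, against 4, 4, 9 and 10 with DMSO. Both sides of the exon thus had nearly the same number of reads, 246 and 229 in the LMI070 group and 23 and 27 in the DMSO group.

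Reads joining exon 11 directly to exon 12 numbered 90, 51, 50 and 49 with LMI070, against 120, 128, 149 and 106 with DMSO. In reads per 1000000 unique junction reads of the library (RPM), that came to 2.30 ± 0.233 with LMI070 and 5.23 ± 0.535 with DMSO (SD, n = 4 each). The sum of both forms was 4.55 ± 0.439 RPM with LMI070 and 5.50 ± 0.548 with DMSO, a smaller difference than that of the skipping form. Reads mapped to more than 1 place did not tell the forms apart: the junction out of the 39-nt exon and the skipping junction held the same multiply mapped count in each of the 8 libraries, 15 over the LMI070 group and 22 over the DMSO group. The junction into the exon held 0 such reads.

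**Figure D1:**
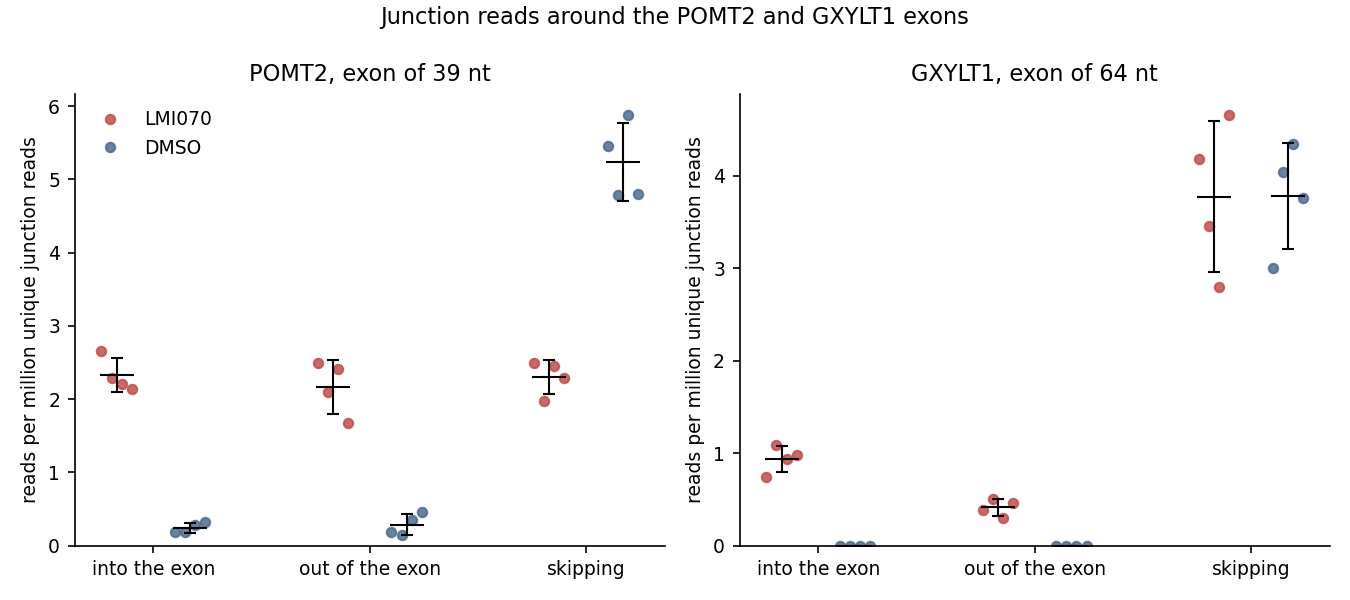
RPM, the reads per 1000000 unique junction reads (y axis), into, out of and skipping the POMT2 exon of 39 nt and the GXYLT1 exon of 64 nt; points are libraries, LMI070 left of DMSO, with bars for the mean and SD (n = 4). For POMT2 the skipping reads averaged 2.30 with LMI070 and 5.23 with DMSO, while for GXYLT1 no DMSO library had a read into or out of the exon.

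The other introns of POMT2-201 were set beside intron 11. Across its 20 introns the log2 ratio of LMI070 to DMSO RPM was -1.18 in intron 11, the lowest, and reached 0.20 in the highest. In 19 of the 20 it lay within 0.5 of zero, with a median over all of -0.04. Intron 10, just before, had 4.59 ± 0.326 RPM with LMI070 and 5.15 ± 0.314 with DMSO, and intron 12, just after, had 4.48 ± 0.444 with LMI070 and 4.59 ± 0.619 with DMSO (SD, n = 4 each). No test was run on single introns.

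**Figure D2:**
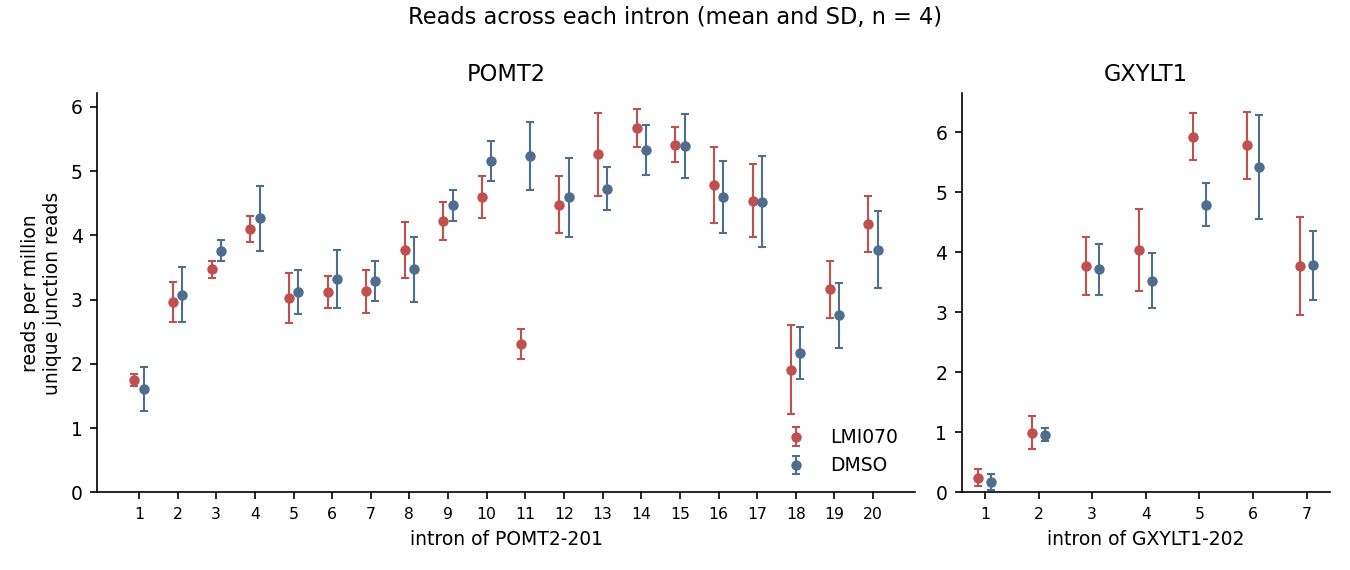
Mean RPM (y axis) across each intron of POMT2-201 and GXYLT1-202 (x axis), LMI070 left of DMSO, with SD over 4 libraries. Intron 11 of POMT2 stands at 2.30 with LMI070 and 5.23 with DMSO, whereas intron 7 of GXYLT1, which holds its exon, stands at 3.77 with LMI070 and 3.79 with DMSO.

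Several further POMT2 exons are skipped in a small share of transcripts, and none passed the test. Exon 2, of 85 nt, was included at 95.1% ± 3.94 with LMI070 and 91.8% ± 2.88 with DMSO. An exon form of 83 nt (chr14:77298689-77298771) had 91.1% ± 4.76 with LMI070 and 88.7% ± 6.67 with DMSO, and one of 107 nt (chr14:77299455-77299561) had 96.3% ± 3.28 with LMI070 and 94.7% ± 1.52 with DMSO (SD, n = 4 each). The groups overlapped in all 3, and their adjusted p by edgeR's quasi-likelihood test with Benjamini-Hochberg adjustment was 1.00. For the 83-nt form lane 7 alone gave -5.69 points and lane 8 alone 10.5, neither past the test, on 19 skipping reads with LMI070 and 21 with DMSO. The 83-nt and 107-nt forms are exons 8 and 7 of POMT2-201, counted as entered from exon 4. That rested on 7 and 10 reads with LMI070 and 9 and 15 with DMSO. The main junctions into them, with 322 and 321 reads with LMI070 and 316 and 320 with DMSO, were left out. Their percentages are thus not the share of transcripts that include either exon.

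POMT2 also has alternative 5′ splice sites, measured by the usage of a junction, its share of all reads that use either of its splice sites. In intron 18 an annotated site had a usage of 17.1%, 20.3%, 3.33% and 21.2% in the LMI070 libraries, against 6.12%, 11.7%, 5.41% and 8.51% in the DMSO libraries. It rested on 34 reads with LMI070 and 18 with DMSO, its mean usage was 15.5% ± 8.30 with LMI070 and 7.93% ± 2.82 with DMSO, and its unadjusted p was 0.0610 (edgeR). The main site of the same intron had 79.5% ± 6.70 with LMI070 and 86.3% ± 4.45 with DMSO. The groups overlapped at both sites.

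Exon 3 of POMT2, of 105 nt, ends in GGA, and a second annotated 5′ splice site lies beyond it in intron 3. That second site had a usage of 2.90%, 1.14%, 5.19% and 1.33% in the LMI070 libraries, against 4.44%, 5.71%, 7.34% and 8.79% in the DMSO libraries. With 10 reads in the LMI070 group and 26 in the DMSO group, the means were 2.64% ± 1.88 with LMI070 and 6.57% ± 1.90 with DMSO. The site at the end of exon 3 had 93.8% ± 4.21 with LMI070 and 90.8% ± 1.89 with DMSO. Of the 88 junctions of the 5 genes tested outside the exons that chose them, the second site of exon 3 was the only one with an unadjusted p under 0.05, at 0.0323, and its adjusted p was 0.977 (edgeR, Benjamini-Hochberg), where 3.1% of all 129495 junctions had an unadjusted p under 0.05. The other 6 POMT2 junctions with a usage of 5% to 95% in a group changed by -1.37 to 3.72 points.

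GXYLT1 had an exon of 64 nt that GENCODE 29 does not hold. It lies at chr12:42095151-42095214 on the minus strand, in intron 7 of GXYLT1-202, 2227 nt after exon 7 and 7203 nt before exon 8, the last. Its own bases were not read here, because only transcript sequences were at hand; the bases on either side of the join it interrupts are the end of exon 7 and the start of exon 8, printed 5′ to 3′ from GENCODE 29 on GRCh38.
exon 7, last 30 bases, chr12:42097442-42097471: tttagagctgtttatgaagcactgagaaat
exon 8, first 30 bases, chr12:42087918-42087947: tgttcttttgaagatgacaacatccgttcc

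The 64-nt exon follows 1161 of the 1320 coding bases of GXYLT1-202, a whole number of codons, so 159 coding bases come after it. Its length leaves a remainder of 1 when divided by 3, which puts exon 8 in another reading frame if the exon is included. Whether a stop codon lies within the exon was not analysed here.

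Inclusion of the 64-nt exon was 12%, 18.7%, 18.0% and 13.4% in LMI070 replicates 13 to 16 and 0% in each DMSO library. The mean with LMI070 was 15.5% ± 3.34 (SD, n = 4), 12.7% in lane 7 and 18.4% in lane 8. In the DMSO group 367 reads skipped the exon and none entered or left it, which allows a share of up to 0.407% for a floor of 3 counts over the group, divided between both junctions; intervals and floors cover counting error only. The change ranked at place 63 of the 38172 exons.

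Reads into the exon numbered 27, 28, 19 and 21 in the LMI070 libraries, which is at least 29.3-fold higher than the floor of 3 counts over the DMSO group. Reads out of it for exon 8 numbered 14, 13, 6 and 10, at least 13.3-fold higher on the same floor. All 4 LMI070 libraries had reads on both sides of the exon. The side towards exon 8 held 43 reads and the side towards exon 7 held 95, a share of 31.2% for the side towards exon 8 with a 95% Wilson interval of 24.0% to 39.3%, so the sides were unequal, unlike those of the POMT2 exon. Counting only the less covered junction gave a change of 9.96 points.

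Skipping reads of GXYLT1 numbered 151, 89, 57 and 100 in the LMI070 libraries, against 66, 108, 110 and 83 in the DMSO libraries. They came to 3.77 ± 0.817 RPM with LMI070 and 3.79 ± 0.574 with DMSO (SD, n = 4 each), and the groups overlapped. With the included form added, the totals were 4.45 ± 0.831 RPM with LMI070 and 3.79 ± 0.574 with DMSO. The reads of the new exon thus stood on top of a skipping form that differed by less than the spread between libraries.

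A longer form of the GXYLT1 exon, 113 nt from the same 3′ splice site, was also defined by the junctions. Its mean inclusion with LMI070 was 11.6% ± 3.21, but 1 read alone marked its other end, so that end is poorly measured and nearly all of its value comes from reads shared with the 64-nt form.

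The 5′ part of GXYLT1 was spliced in more than 1 way in both groups. Exon 2, of 93 nt, was included at 78.4%, 65.1%, 71.4% and 51.5% in the LMI070 libraries, against 55.6%, 61.7%, 60.7% and 70.6% in the DMSO libraries. The groups overlapped across most of their range, with means of 66.6% ± 11.4 for LMI070 and 62.1% ± 6.25 for DMSO, and an adjusted p of 1.00 (edgeR, Benjamini-Hochberg). The change was -0.68 points in lane 7 alone. An unannotated exon of 183 nt between exons 2 and 3 had 10.3% ± 8.55 with LMI070 and 6.34% ± 2.6 with DMSO (SD, n = 4 each); LMI070 replicate 16 alone had 23.1%, and without that replicate the difference was -0.25 points. At the 5′ end of exon 3, the junction from exon 2 had a usage of 66.1% ± 13.7 with LMI070 and 67.0% ± 4.83 with DMSO, and the junction from exon 1 had 18.9% ± 6.97 with LMI070 and 22.1% ± 4.38 with DMSO.

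Along GXYLT1-202 the log2 ratios of its 7 introns had a median of 0.09. The junction across intron 5 had 5.93 ± 0.393 RPM with LMI070 and 4.80 ± 0.355 with DMSO (SD, n = 4 each). That across intron 7 had 3.77 with LMI070 and 3.79 with DMSO. Differences at single introns of GXYLT1 were not tested. Intron 1 had the fewest, 0.25 ± 0.149 RPM with LMI070 and 0.17 ± 0.133 with DMSO, so the highest ratio of 0.51 there rests on few reads.

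POMT1, the partner of POMT2 in the mannosyltransferase complex, had 16 cassette exon forms tested, more than any other of the genes. A 152-nt exon near its 5′ end (chr9:131504189-131504340) was included at 49.1%, 53.5%, 56.5% and 53.8% in the LMI070 libraries, against 48.4%, 50.6%, 49.2% and 45.5% in the DMSO libraries. The means were 53.2% ± 3.07 with LMI070 and 48.4% ± 2.16 with DMSO; the groups overlapped and the adjusted p was 1.00 (edgeR, Benjamini-Hochberg). Reads into the 152-nt exon numbered 139 with LMI070 and 151 with DMSO, and reads out of it 251 and 230, so its sides were unequal. A 461-nt form from the same 3′ splice site had 32.2% ± 2.93 with LMI070 and 30.3% ± 2.26 with DMSO. Its entering reads, 139 with LMI070 and 151 with DMSO, are shared with the 152-nt exon. Only 26 reads with LMI070 and 25 with DMSO left it, so most of its value comes from shared reads.

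None of the other POMT1 choices passed the test. The junction that skips the 152-nt exon had a usage of 27.2% ± 2.38 with LMI070 and 31.7% ± 1.82 with DMSO. The junction into it had 40.0% ± 2.80 with LMI070 and 39.8% ± 2.91 with DMSO, that out of it 53.8% ± 6.65 with LMI070 and 48.5% ± 2.40 with DMSO, and that out of the 461-nt form 5.43% ± 2.32 with LMI070 and 5.28% ± 1.94 with DMSO. A pair of 5′ splice sites ends forms that were counted as exons of 254 and 320 nt. An annotated intron inside both forms (chr9:131509809-131509902) was spliced out in 653 reads with LMI070 and 590 with DMSO. In those reads neither form is a single exon, and the sites end a shorter exon after that intron. Of this pair of sites, the nearer held 78.9% ± 2.19 with LMI070 and 76.3% ± 2.84 with DMSO. The farther held 17.4% ± 0.886 with LMI070 and 19.3% ± 2.41 with DMSO. A pair further along shared reads at 94.1% ± 2.17 and 5.89% ± 2.17 with LMI070, and at 95.5% ± 1.37 and 4.53% ± 1.37 with DMSO. The junction out of a 147-nt exon had 94.7% ± 1.01 with LMI070 and 94.6% ± 1.62 with DMSO. Changes over the 28 POMT1 junctions tested ran from -4.50 to 5.33 points, and none had an unadjusted p under 0.05. A 112-nt exon was the only other exon of the 5 genes whose groups did not overlap, at 98.7% ± 0.466 with LMI070 and 99.4% ± 0.406 with DMSO, a difference of -0.71 points. That is 1 of 34 exons, next to 3.46% of all 38172 exons tested whose groups did not overlap.

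POMGNT1, which acts after the POMT1 and POMT2 complex, had the deepest junctions. A 99-nt exon was included at 93.6%, 94.0%, 93.1% and 91.2% in the LMI070 libraries, against 92.8%, 92.9%, 94.7% and 95.1% in the DMSO libraries. Near its 3′ end, exon forms of 116 and 178 nt stood at 86.4% ± 3.25 and 85.8% ± 3.29 with LMI070 and at 87.1% ± 2.84 and 86.7% ± 2.99 with DMSO. Both are entered across intron 21, which also leads into the last exon of POMGNT1-201, on 937 reads with LMI070 and 874 with DMSO. With LMI070 59 reads left the 116-nt form and 8 the 178-nt form, and with DMSO 39 and 9. Nearly all of both values thus comes from the shared junction. All changes of POMGNT1 exons lay between -2.0 and -0.54 points, and lane 8 alone turned the 99-nt exon to 0.72. The 5′ splice site of the 116-nt form had a usage of 40.8% ± 7.82 with LMI070 and 33.5% ± 3.53 with DMSO, on 59 reads with LMI070 and 39 with DMSO, with an unadjusted p of 0.421 (edgeR). The remaining POMGNT1 junctions that carried between 5% and 95% in a group differed by -2.09 to 0.385 points.

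XXYLT1-201 has 3 introns, and no exon of XXYLT1 met the read minimum for the exon test. Its 4 junctions tested changed by -1.23 to 0.67 points. The junction from exon 2 to exon 3 had a usage of 95.4% ± 0.246 with LMI070 and 96.6% ± 2.6 with DMSO, and a competitor had 3.14% ± 1.59 on 15 reads with LMI070 and 3.01% ± 2.36 on 14 reads with DMSO.

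**Figure D3:**
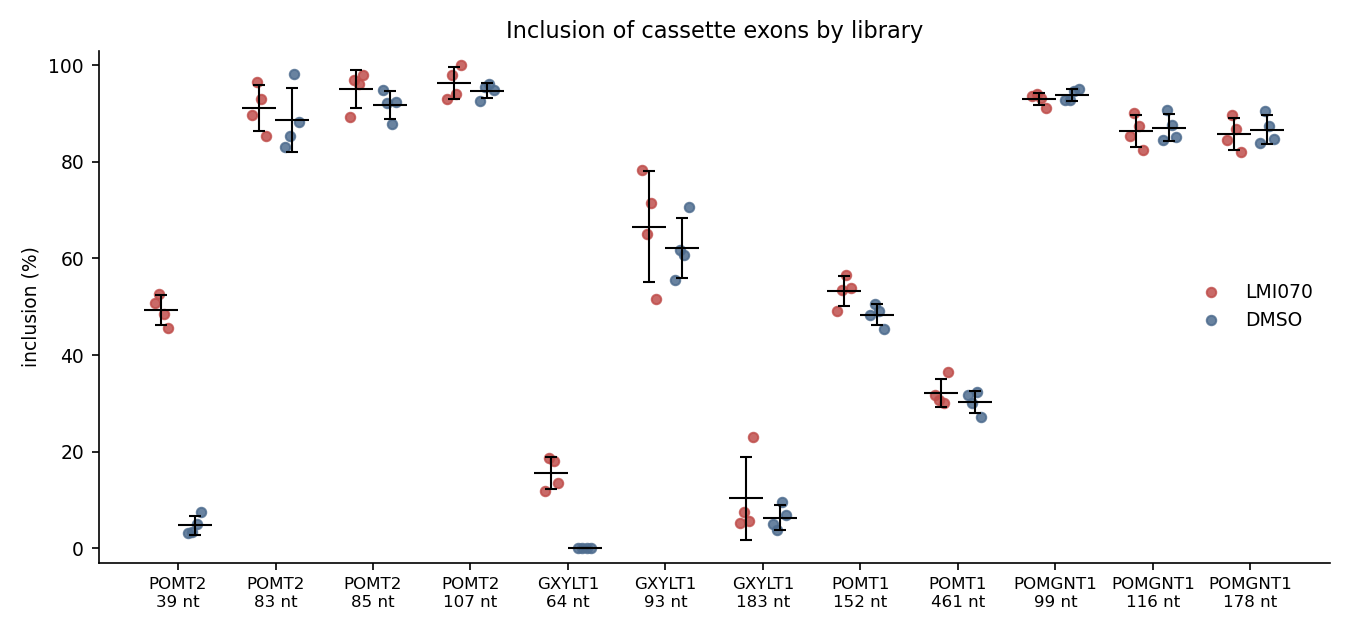
Inclusion in percent (y axis) of each exon form of POMT2, GXYLT1, POMT1 and POMGNT1 that had at least 10 reads at both of its junctions and at least 5% of either form in a group; points are libraries, LMI070 left of DMSO, with mean and SD (n = 4). The groups are apart for the POMT2 exon of 39 nt (49.3% with LMI070 and 4.79% with DMSO) and the GXYLT1 exon of 64 nt (15.5% with LMI070 and 0% with DMSO) and overlap for the other 10. Reads were very unequal between both junctions for the POMT2 forms of 83 and 107 nt and the GXYLT1 exon of 93 nt. The same held for the POMT1 form of 461 nt and the POMGNT1 forms of 116 and 178 nt.

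Over the 5 genes, 37 exon forms were tested, 16 in POMT1, 9 in POMT2, 8 in POMGNT1, 4 in GXYLT1 and 0 in XXYLT1, and 22 had at least 10 reads at both junctions. Apart from the 39-nt exon and both GXYLT1 forms, 0 of the 34 others passed edgeR's test with Benjamini-Hochberg adjustment and 0 had an unadjusted p under 0.05, and the same counts were 0 and 0 with DESeq2. Their changes ran from -2.52 to 4.85 points. In simulated data edgeR's test recovered 49% of true changes of 20 points for exons and 42% for junctions. Besides the GXYLT1 form of 113 nt, 11 forms with at least 5% of either form in a group had fewer than 10 reads at a junction, and their groups overlapped. In POMT2 the forms of 50, 147, 278 and 336 nt had means of 9.47%, 9.34%, 91.6% and 94.7% with LMI070 and of 4.81%, 4.86%, 93.2% and 91.4% with DMSO. The POMT2 forms of 50 and 147 nt both end at the annotated site in intron 18 described above. They share its 34 reads with LMI070 and 18 with DMSO, so they are not separate signals. In POMT1 those of 38, 62, 164 and 212 nt had 92.8%, 86.3%, 93.2% and 95.9% with LMI070 and 95.3%, 83.8%, 93.0% and 93.7% with DMSO. In POMGNT1 those of 39, 104 and 158 nt had 87.2%, 86.5% and 85.7% with LMI070 and 88.4%, 88.5% and 86.6% with DMSO. Each rested on 1 to 7 reads at its lesser junction. Among all exons 53 of 38172 were called, 51 higher (0.134%) and 2 lower (0.00524%). Of 129495 junctions 86 were called, which is 0.0664%, with 0.0394% higher and 0.027% lower, and of the 88 junctions of these genes outside the choosing exons 0 were, with changes from -6.80 to 7.57 points and a smallest adjusted p of 0.977; DESeq2 was not run on junctions.

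Some junctions were read in 1 group alone. With LMI070 there were 17 in POMT1, 12 in POMT2, 16 in POMGNT1, 6 in GXYLT1 and 7 in XXYLT1, and with DMSO 13, 11, 11, 4 and 6 in the same genes. The deepest of them had 3, 3, 1, 95 and 5 reads with LMI070 and 3, 3, 2, 1 and 1 with DMSO. Together these were 21.4% of 271 junctions with LMI070 and 16.6% with DMSO, next to 24.2% with LMI070 and 21.1% with DMSO of all 597056 junctions with unique reads, at 103716248 reads in the LMI070 group and 96095287 in the DMSO group. The junction of 95 reads is that into the 64-nt GXYLT1 exon, which chose the gene, and the others had at most 5 reads or led out of that exon. Reads in unannotated junctions made up 6.16% of GXYLT1 junction reads with LMI070 and 0.995% with DMSO, next to 1.55% with LMI070 and 1.32% with DMSO for POMT2, whose 39-nt exon is annotated.

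The ends of the exons of these genes were compared with those of the annotation, since exon 11 and the 39-nt exon of POMT2 both end in AGA. Of 244812 internal exons in GENCODE 29, 1.74% end in GA and 0.756% in AGA. Of 88 internal exons of the 5 genes, 5 end in GA: 1 in POMT1, 3 in POMT2 and 1 in GXYLT1. Their last 20 bases, 5′ to 3′ from the GENCODE 29 transcripts on GRCh38, are shown with the closing GA in capitals to set exons with like ends but unlike values side by side.
POMT2 39-nt exon, minus strand, chr14:77287233-77287271: tggcgatgggagcagaaaGA
POMT2 exon 11, minus strand, chr14:77288762-77288831: attcgactagaacacaaaGA
POMT2 exon 3, minus strand, chr14:77306337-77306441: gctacatgggaatgagagGA
GXYLT1 exon 3, minus strand, chr12:42119000-42119171: atcatagctttaaaggcaGA
POMT1 exon 15, plus strand, chr9:131518837-131518957: ggagcaccgatacggcgcGA

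The intron after POMT2 exon 3 had 3.47 ± 0.129 RPM with LMI070 and 3.76 ± 0.163 with DMSO. That after GXYLT1 exon 3 had 3.77 ± 0.489 with LMI070 and 3.72 ± 0.431 with DMSO, and that after POMT1 exon 15 had 6.31 ± 0.742 with LMI070 and 6.21 ± 1.30 with DMSO (SD, n = 4 each). The intron after POMT2 exon 11, whose junction skips the 39-nt exon, had a log2 ratio of -1.18, and the junction out of the 39-nt exon had 229 reads with LMI070 and 27 with DMSO; both belong to the exon that chose the gene. An exon end is a description of the sequence and not a measure of how its splice site is used.

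The level of a gene was taken as its spliced reads, summed over annotated junctions, and 0.126% of 14250 genes were called. In bulk RNA fewer cells that express a gene and less RNA per cell cannot be told apart. POMT2 had 77.2, 77.8, 81.3 and 76.5 CPM in the LMI070 libraries, against 79.1, 73.2, 82.1 and 75.2 CPM in the DMSO libraries. The groups overlapped, and the log2 fold change was 0.01 (SE 0.05), between -0.03 and 0.06 under the other settings. GXYLT1 had 27.0, 22.5, 22.0 and 24.5 CPM with LMI070, against 20.7, 23.2, 21.3 and 22.8 CPM with DMSO, a log2 fold change of 0.13 (SE 0.07). LMI070 replicate 13 was its highest library, and lane 8 alone gave 0.02.

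POMT1 had 109.5, 104.3, 104.9 and 99.7 CPM in the LMI070 libraries, against 112.0, 104.2, 104.2 and 90.2 CPM in the DMSO libraries, a log2 fold change of 0.03 (SE 0.05) with an adjusted p of 0.876 by edgeR. POMGNT1 averaged 198.2 ± 3.35 CPM with LMI070 and 196.3 ± 14.2 CPM with DMSO (log2 fold change 0.01, SE 0.05, adjusted p 0.939 by edgeR). XXYLT1 averaged 11.3 ± 0.755 CPM with LMI070 and 10.5 ± 0.400 CPM with DMSO (log2 fold change 0.10, SE 0.08, adjusted p 0.706 by edgeR). None of these 3 genes was called, and their groups overlapped. For POMT1 and POMGNT1 the sign turned when single libraries were left out or 1 lane was used, to -0.04 and -0.02 at the lowest.

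**Figure D4:**
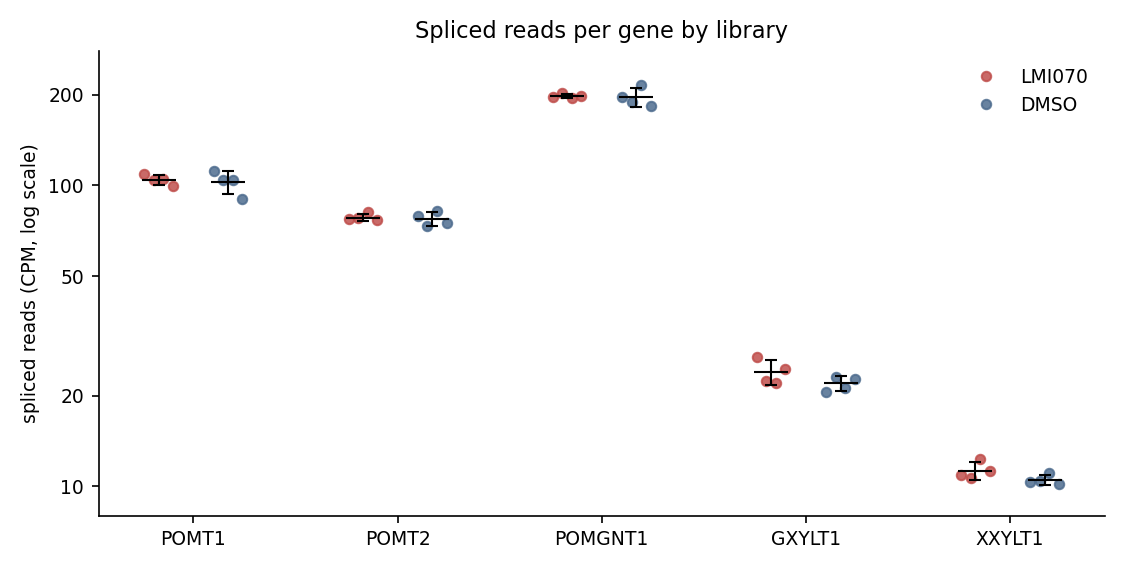
Spliced reads per gene in CPM (y axis, log scale) for the 5 genes; points are libraries, LMI070 left of DMSO, with mean and SD (n = 4). POMT2 averaged 78.2 CPM with LMI070 and 77.4 CPM with DMSO, and the groups overlap for all 5 genes.

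Per intron, so that genes of different length can be compared, POMGNT1 was the highest, with a median over its introns of 10.1 ± 0.194 RPM with LMI070 and 9.70 ± 0.775 with DMSO. POMT1 followed, at 5.73 ± 0.271 with LMI070 and 5.63 ± 0.464 with DMSO. XXYLT1 had 4.27 ± 0.494 with LMI070 and 3.61 ± 0.409 with DMSO, POMT2 had 3.86 ± 0.032 with LMI070 and 3.89 ± 0.317 with DMSO, and GXYLT1 had 3.83 ± 0.410 with LMI070 and 3.70 ± 0.421 with DMSO (SD, n = 4 each). The last 3 genes differed from each other by less than or about the spread between libraries.

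The wider pathways were described by 8 lists of genes that share a step of O-glycosylation or its targets, 64 genes of which 60 were tested; 0 were called higher and 0 lower by edgeR, against 0.0211% and 0.105% of all genes. DESeq2 also called 0 of the 60, with 4 at an unadjusted p under 0.05. With edgeR, 36 of the 60 had a log2 fold change above zero and 24 below, with a median of 0.01, next to 6994 above and 7256 below and a median of -0.002 for all genes tested. At an unadjusted p under 0.05 there were 4 higher and 3 lower, near the 5.73% higher and 4.67% lower of all genes tested. Among them, and looked up after their values were seen, LFNG, NOTCH1, NOTCH3 and XYLT2 stood at 0.51, 0.36, 0.20 and 0.15, and RXYLT1 and GALNT1 at -0.15 and -0.09 on the log2 scale.

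The O-mannosyl glycan and matriglycan list, which holds POMT1, POMT2 and POMGNT1 with the later enzymes and dystroglycan itself, had 14 of 14 genes tested and a median of 0.02, nearest to POMGNT1 and to POMK, the kinase that phosphorylates the O-mannose (0.02). The list for the supply of dolichol-phosphate mannose, the sugar donor of POMT1 and POMT2, had 7 of 8 tested and a median of -0.04, nearest to SRD5A3 at -0.04 and MPDU1 at -0.07. Other O-mannosyltransferases, TMTC1 to TMTC4, had a median of -0.06, nearest to TMTC4 at -0.04 and TMTC3 at -0.08. No gene of these lists was called in either direction.

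The O-glucose and xylose list, which holds GXYLT1 and XXYLT1, had 6 of 6 tested and a median of 0.02, with GXYLT2, the enzyme of the same step as GXYLT1, at 0.05 and POGLUT3 at 0.00. The Notch list, of the receptors that carry this glycan and their ligands, had 8 of 9 tested and none called. Its log2 fold changes ran from 0.01 to 0.36 with a median of 0.04, and NOTCH1 was the highest. In lane 7 NOTCH1 had 18.5 and 17.5 CPM with LMI070 and 11.4 and 10.1 CPM with DMSO. Lane 8 gave 11.8 and 12.2 CPM with LMI070 and 12.4 and 12.4 CPM with DMSO, so its rise was seen in lane 7 alone. NOTCH2 stood at a log2 fold change of 0.03 and JAG1, a ligand, at 0.04. The list for O-fucose and O-linked N-acetylglucosamine had 6 of 7 tested and a median of 0.07, nearest to RFNG at 0.09, which extends the fucose, and to POFUT1 at 0.06, which attaches it. The proteoglycan linker list had 5 of 6 tested and a median of 0.00, nearest to B3GAT3 at 0.00 and FAM20B at -0.005. The list for mucin-type O-glycans had 10 of 10 tested and a median of -0.01, nearest to GALNT10 at 0.02 and GALNT12 at -0.05. Among the 217 exon forms and 601 junctions tested in all lists, the 3 exons and 5 junctions called were those of POMT2 and GXYLT1 that chose these genes, so their calls were fixed by the choice.

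**Figure D5:**
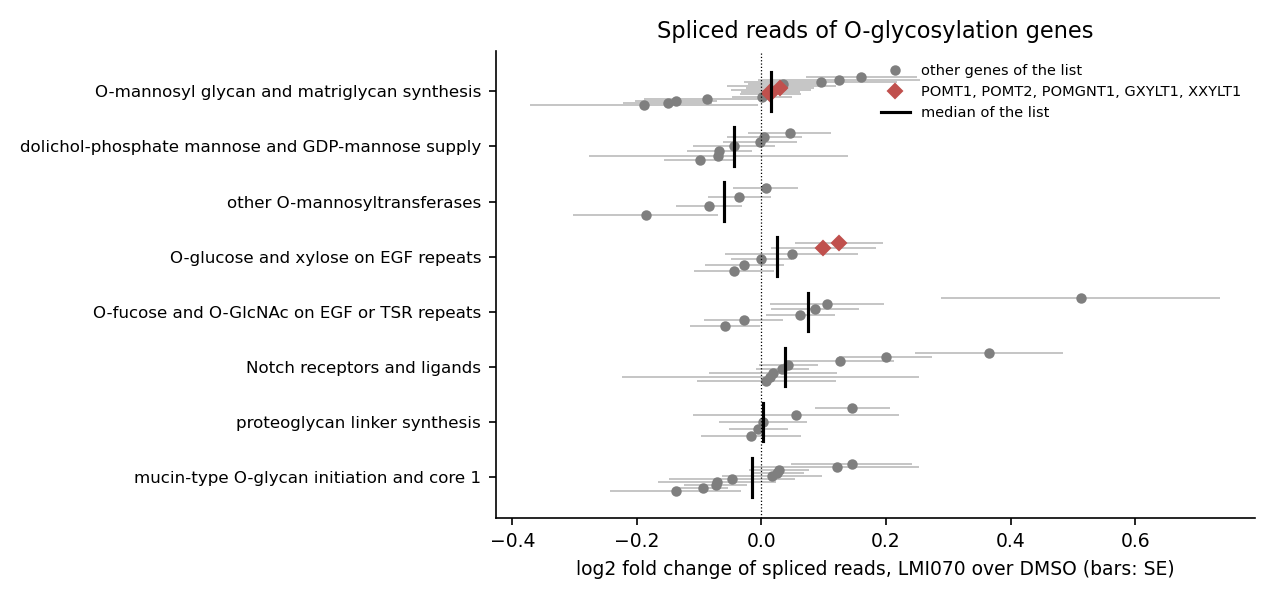
Log2 fold change of spliced reads, LMI070 over DMSO (x axis), for the 60 genes tested in 8 lists of O-glycosylation genes; grey bars are the SE, black lines the median of each list and diamonds the genes of the opening. Medians run from -0.06 to 0.07, and no gene was called.

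The exons of other genes most like the 2 choosing exons were found by the root mean square difference in inclusion over the 8 libraries. For POMT2 the nearest were an exon of BECN1 (4.31 points; 46.6% ± 2.80 with LMI070 and 0.758% ± 1.52 with DMSO), whose lesser junction had 1 read over all libraries, and one of ZNF37BP (6.82 points; 51.4% ± 5.54 with LMI070 and 11.1% ± 1.86 with DMSO). C12orf4, PDE7A and KDM6A followed at 10.4, 11.9 and 12.5 points. For the GXYLT1 exon of 64 nt the nearest were in KDM6A, CACNA2D1, LARP7, SKP1 and FAM3A, at 2.44 to 3.40 points, each with 1 to 5 reads at its lesser junction. These are descriptions of inclusion over the same 8 libraries.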

How the data were processed

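The deposited tables hold, per the file headers, raw counts of uniquely and of multiply mapped reads across each splice junction, 1 table per library, with no normalization by the authors. Per the submitters' processing notes, the aligner was STAR 2.6.0c and the build GRCh38; alignment settings and read filters are not given in the sources used here. Uniquely mapped counts were used. Junctions were matched to GENCODE 29, in which 242867 of 654181 junctions are introns. The members and gene lists were chosen with earlier results of these data known.

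A cassette exon of 3 to 500 nt needed 2 inclusion junctions and a skipping junction, a total of 10 reads or more of each form and 10 or more in every library. Introns within the exon were not looked for, and other junctions at its splice sites were not counted. The usage of a junction was its reads as a share of reads at its splice sites; it needed a total of 20 reads, with 10 at those sites per library. In edgeR 4.0.16 (R 4.3.3) paired counts were given a quasi-likelihood F test with library, lane and treatment terms. Benjamini-Hochberg adjustment covered all features, and calls required an adjusted p below 0.05 together with 10 percentage points or more of change. Genes were filtered by filterByExpr, scaled by TMM and tested with lane and treatment; SEs of fold changes come from the F statistics. Per-million values divide by unique junction reads of the library. In simulated data the exon test recovered 98 of 200 true changes of 20 points and the junction test 84 of 200. The simulation had no lane effect, and its changes started from shares below those of most exons of the 5 genes. The rate of recovery for those exons was thus not measured. The gene test recovered 96.5% of log2 fold changes of 1 and 93% of those of -1, and called 6 and 13 unchanged genes. An exon or junction that did not pass may thus still have changed. All 5 genes were named, with every exon or junction at 5% to 95% in a group (SDs are given for exons with 10 or more reads at both junctions), the 2 genes nearest each list's median, and the 5 exons most alike. Replicates differed by more than sampling noise. The chi-square per degree of freedom was 1.92 to 13.1 with LMI070 and 1.96 to 7.92 with DMSO. Pairs within a lane had 1.92 and 3.79 with LMI070 and 1.96 and 7.28 with DMSO. Pairs across lanes had 10.9 to 13.1 with LMI070 and 3.94 to 7.92 with DMSO. The p-values measure the spread between libraries, which may be technical. Alternatives were DESeq2 1.42.0, other scaling, filters, lanes and read sets, and leaving out libraries; leaving out LMI070 replicate 16 with DMSO replicate 12 was chosen after seeing the data.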

Additional observations from a re-analysis of the deposited data

Results flagged for a closer look

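In 34 groups of 4 libraries, the 5 genes and the exon forms with both forms present in each treatment, 1 library lay far from the others of its group, where chance gives about 1 in 20 groups. It was the GXYLT1 exon of 183 nt in LMI070 replicate 16, at 23.1% inclusion, with the other LMI070 libraries at 5.26%, 7.46% and 5.56%. The gap to the next library was 0.877 of the whole range of the group, above the 95% critical value of Dixon's test for 4 samples. The exon rested on 12 and 9 reads at its junctions in the LMI070 group and 4 and 9 in the DMSO group, and replicate 16 was also the library farthest from the others over all genes tested; what part either had in the value was not tested.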

How the results depend on the processing

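The POMT2 exon of 39 nt changed by 41.9 to 47.2 points over 16 alternatives and the GXYLT1 exon of 64 nt by 9.96 to 18.4, the lowest with the less covered junction. No other exon and none of POMT1, POMGNT1 and XXYLT1 as genes was called under any alternative run on it. Counts of called exons were 53, with 35 in lane 7 alone and 25 with the less covered junction; called junctions were 86, with 52 in lane 7 and 48 in lane 8 alone; called genes were 18, with 272 without the filter on low counts, 666 in lane 7 and 47 in lane 8 alone and 37 by DESeq2. The cause was not tested. Leaving out libraries gave 46 to 54 exons, 71 to 82 junctions and 11 to 18 genes; the 11 came without LMI070 replicate 14, and 47 exons, 71 junctions and 14 genes came without both LMI070 replicate 16 and DMSO replicate 12.

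Uncalled differences turned their sign as follows, with changes in points for exons. In lane 8 alone the POMGNT1 exons of 178, 116 and 99 nt gave 0.96, 1.18 and 0.72, the POMT1 exon of 461 nt -0.52 and the POMT1 gene -0.044 (log2). In lane 7 alone the GXYLT1 exon of 93 nt gave -0.68, the POMT2 exon of 83 nt -5.69 and the POMGNT1 gene -0.012. The less covered junction gave 6.95 for the POMGNT1 exon of 116 nt. Leaving out libraries gave -2.23 to 0.40 for the POMGNT1 exon of 178 nt, -1.95 to 0.60 for that of 116 nt, -1.26 to 0.099 for that of 99 nt, -0.25 to 5.69 for the GXYLT1 exon of 183 nt, -0.55 to 2.62 for the POMT1 exon of 461 nt, -0.018 to 0.072 for the POMT1 gene and -0.020 to 0.073 for the POMGNT1 gene. No paired analysis was possible because the groups share no replicate number. Depth limits the GXYLT1 exon of 64 nt, whose 5′ splice site rests on 43 reads.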
